A study of Rattus norvegicus with 12 samples.

Results

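Bone morphogenetic proteins (BMPs) and the proteins that restrain them were followed in rat knee chondrocytes through 9 genes: the ligands Bmp2, Bmp4, Bmp6 and Bmp7, the secreted antagonists Grem1, Chrdl1, Nog and Fst, and the membrane pseudoreceptor Bambi. They were taken by symbol from a table of 28546 genes, and all 9 were among the 11373 genes tested. The 12 RNA-seq libraries came from male Sprague Dawley rats, whose age the sources used here do not give. In 3 of the 4 groups the anterior cruciate ligament had been ruptured by compression of the tibia, which leads to post-traumatic osteoarthritis, and the knee was then injected repeatedly over several weeks, starting some weeks after the rupture. Lipo-CGS knees received liposomes loaded with CGS21680, an agonist of the adenosine receptor A2AR. Lipo knees received empty liposomes and Saline knees received saline, while the Uninvolved group came from knees that were not injured. The paper calls this the unaffected knee, and it compared swelling with each rat's healthy knee. Uninvolved libraries may therefore share rats with the injured groups, which the sample titles do not tell. Each group had 3 libraries, and each library pooled chondrocytes of 3 rats that had been grown in culture. The study had too few rats per group for 3 separate pools, so libraries of a group may share rats, and p-values measure only the spread between these libraries. In such pools, fewer cells of a type cannot be told apart from less RNA per cell.

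BMPs are secreted dimers of the transforming growth factor beta superfamily that bind pairs of serine/threonine kinase receptors, which then phosphorylate SMAD transcription factors and switch on genes such as the Id genes. In cartilage they promote chondrocyte differentiation and matrix production, and in the growth plate they also drive the steps toward hypertrophy. Antagonists hold the ligands in the extracellular space: gremlin 1 (Grem1), chordin-like 1 (Chrdl1) and noggin (Nog) bind BMPs directly, and follistatin (Fst) binds activins most tightly and some BMPs less so. Bambi resembles a type I receptor without a kinase domain and is itself a target of BMP signaling.

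Values were deposited as FPKM (fragments per kilobase of transcript, scaled between libraries) and tested with limma as log2(FPKM + 0.5). A gene was called where its adjusted p was under 0.05 and its fold change over 1.5 in either direction, and each log2 difference below is on that scale, which understates the change of low genes. All 10 chondrocyte markers listed were tested, and their summed level was 12040 to 17652 FPKM in Lipo-CGS knees, 9623 to 15445 FPKM in Lipo, 5920 to 10802 FPKM in Saline and 9313 to 10446 FPKM in Uninvolved libraries. The summed level of 9 fibroblast markers was 1348 to 1411 FPKM in Lipo-CGS knees, 2583 to 2676 FPKM in Lipo, 1152 to 2758 FPKM in Saline and 1118 to 1979 FPKM in Uninvolved libraries. Col1a1, Col3a1 and Dcn made up most of this sum and did not move together. In the same order of groups, mean FPKM was 85.0, 1004, 305 and 81.4 for Col1a1 and 506, 971, 354 and 231 for Col3a1. For Dcn it was 533, 378, 1102 and 1134. The sum of the 7 leukocyte markers in the table was 26.4 to 36.3 FPKM in Lipo-CGS knees, 22.4 to 25.9 FPKM in Lipo, 44.1 to 49.3 FPKM in Saline and 44.4 to 69.8 FPKM in Uninvolved libraries. Cd14 alone made up most of this sum in every library, and Cd163 and Cd3e were at 0 in all of them. Ptprc, the pan-leukocyte marker, did not exceed 0.09 FPKM, and the endothelial marker Cdh5 did not exceed 0.11 FPKM in any library. The part of these cell types in the results was not tested. Saline 3 stood farthest from its own group over all genes, at a root mean square log2 difference of 0.385, followed by Uninvolved 3 at 0.376, against 0.199 for Lipo-CGS 3 at the other end.

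The 4 members that were called higher in Lipo-CGS than in Saline knees were Bmp4, Bmp6, Nog and Bambi, where 8.23% of all tested genes were called higher, and the 250 bases before their annotated starts are shown because these genes moved in the same direction there. The sequences are from RefSeq on GRCr8, a later assembly than that of the deposited table, and run 5′ to 3′ on the strand of the gene, which is the minus strand for all of them. Bmp4 is at chr15:22101934-22102183, Bmp6 at chr17:26675262-26675511, Nog at chr10:74627502-74627751 and Bambi at chr17:58821004-58821253. Capitals mark matches to TGACG, the short core of the cAMP response element, or to GGCGCC, a GC-rich element of BMP-responsive SMADs, on either strand.
Bmp4: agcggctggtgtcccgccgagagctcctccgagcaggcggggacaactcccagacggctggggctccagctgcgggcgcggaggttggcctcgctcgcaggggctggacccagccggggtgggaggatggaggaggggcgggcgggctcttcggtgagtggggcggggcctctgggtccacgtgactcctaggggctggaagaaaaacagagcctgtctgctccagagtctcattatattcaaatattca
Bmp6: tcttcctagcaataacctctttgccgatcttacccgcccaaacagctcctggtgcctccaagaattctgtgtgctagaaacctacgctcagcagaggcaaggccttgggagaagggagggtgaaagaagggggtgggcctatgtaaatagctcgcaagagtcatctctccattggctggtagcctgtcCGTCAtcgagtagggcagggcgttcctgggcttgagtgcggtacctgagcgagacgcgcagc
Nog: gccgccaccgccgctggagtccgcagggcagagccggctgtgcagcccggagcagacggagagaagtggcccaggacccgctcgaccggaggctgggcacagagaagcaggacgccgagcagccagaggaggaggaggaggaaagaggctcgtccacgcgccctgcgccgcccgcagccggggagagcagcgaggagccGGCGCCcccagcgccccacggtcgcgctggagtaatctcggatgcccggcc
Bambi: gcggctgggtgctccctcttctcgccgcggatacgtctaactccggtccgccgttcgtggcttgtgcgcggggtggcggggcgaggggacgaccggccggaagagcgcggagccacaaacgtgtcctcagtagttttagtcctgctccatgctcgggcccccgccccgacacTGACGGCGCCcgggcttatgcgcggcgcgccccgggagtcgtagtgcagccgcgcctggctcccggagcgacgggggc

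The RefSeq table held promoters for 6 of the 9 members. The palindromic cAMP response element TGACGTCA was in none of the 6, and in 1.59% of all 33469 promoters of the same length. TGACG or its reverse complement was in 2 of the 6, against 18.2% of all promoters: it began 62 bases before the start in Bmp6, on the opposite strand, and 78 bases before it in Bambi. GGCGCC, which reads the same on both strands, was in 3 of the 6, against 8.69% of all promoters, at 91 bases before the start in Grem1, 51 in Nog and 74 in Bambi. In Bambi the match shares 1 base with TGACG. GC content was 66.4% in Bmp4, 56.4% in Bmp6, 74% in Nog and 72.4% in Bambi, against a median of 51.2% over all promoters. These matches describe letters in a window and are not sites of binding.

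Bmp4, a BMP that induces cartilage and bone, set the knees injected with liposomes apart from the others. It was at 13.5, 14.4 and 18.9 FPKM in the Lipo-CGS libraries, 9.99, 14.7 and 16.4 FPKM in the Lipo libraries, 7.06, 6.5 and 4.97 FPKM in the Saline libraries, and 6.10, 5.43 and 5.26 FPKM in the Uninvolved libraries. Every library of the liposome groups was above every library of the Saline and Uninvolved groups, while Lipo-CGS overlapped with Lipo, and Saline with Uninvolved. The log2 difference was 1.39 ± 0.19 (SE) for Lipo-CGS against Uninvolved (limma adjusted p = 3.0e-04) and 1.20 ± 0.19 for Lipo against Uninvolved (limma adjusted p = 4.0e-04). Against Saline it was 1.27 ± 0.19 for Lipo-CGS (limma adjusted p = 7.6e-04) and 1.07 ± 0.19 for Lipo (limma adjusted p = 0.00126). Bmp4 was called in these 4 comparisons under each of the 20 alternative settings. Between Lipo-CGS and Lipo the difference was 0.19, with a 95% interval of -0.21 to 0.60.

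Bmp7, a BMP also known as osteogenic protein 1, showed the reverse order of groups. Its levels were 0.70, 1.5 and 0.88 FPKM in Lipo-CGS knees, 2.82, 0.89 and 0.86 FPKM in Lipo, 4.59, 3.15 and 2.02 FPKM in Saline, and 5.25, 5.90 and 3.92 FPKM in Uninvolved libraries. It fell in Lipo-CGS by 1.87 ± 0.35 on the log2 scale against Uninvolved (limma adjusted p = 0.00157) and in Lipo by 1.57 ± 0.35 (limma adjusted p = 0.00318), and both calls were kept in all 19 settings in which the gene was tested. Against Saline it fell in Lipo-CGS by 1.27 ± 0.35 (limma adjusted p = 0.0153), a call that was lost without Lipo-CGS 1 (adjusted p = 0.0583) or without Saline 1 (adjusted p = 0.0604). In Lipo it fell by 0.97 ± 0.35 against Saline (limma adjusted p = 0.0422), with Lipo 1 inside the Saline range, and this call was kept in 10 of 19 settings. Without Lipo 2, Lipo 3 or Saline 1 the adjusted p was 0.141, 0.152 and 0.154. Bmp7 reached 1 FPKM in 8 of the 12 libraries, and 4 of the 6 liposome libraries were under that level. The 3 Saline or the 3 Uninvolved libraries alone would have taken it past the filter, and the liposome libraries would not. Bmp7 was thus tested only through the groups where it was high, so its falls are a description and are not read as support.

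Bmp2, which drives chondrocyte maturation and bone formation, was lower in the liposome groups than in uninvolved knees. It was at 7.04, 7.01 and 8.51 FPKM in Lipo-CGS knees, 6.74, 8.17 and 6.47 FPKM in Lipo, 9.23, 11.9 and 7.21 FPKM in Saline, and 14.9, 13.1 and 10.03 FPKM in Uninvolved libraries. The Saline libraries lay between and overlapped with each of the other groups. Bmp2 fell by 0.70 ± 0.18 on the log2 scale in Lipo-CGS against Uninvolved (limma adjusted p = 0.00772) and by 0.78 ± 0.18 in Lipo (limma adjusted p = 0.00368). Without Uninvolved 1 the fall in Lipo-CGS was 0.58, under the fold threshold, while the call for Lipo was kept in each of 20 settings.

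Bmp6, a BMP expressed by maturing chondrocytes, was highest in Lipo-CGS. Its levels were 17.7, 20.0 and 17.2 FPKM there, against 13.0, 11.8 and 9.24 FPKM in Lipo, 12.8, 9.02 and 6.80 FPKM in Saline, and 9.39, 11.3 and 12.8 FPKM in Uninvolved libraries. The lowest Lipo-CGS library was above the highest of all others, which overlapped with each other. The log2 difference of Lipo-CGS was 0.95 ± 0.20 against Saline (limma adjusted p = 0.00400) and 0.70 ± 0.20 against Uninvolved (limma adjusted p = 0.0129). The call against Uninvolved was lost without Uninvolved 1, at an adjusted p of 0.0574. Against Lipo the difference was 0.68 ± 0.20, with a 95% interval of 0.25 to 1.11, and it was not called over all genes (limma adjusted p = 0.118, range over settings 0.0663 to 0.357).

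**Figure D1:**
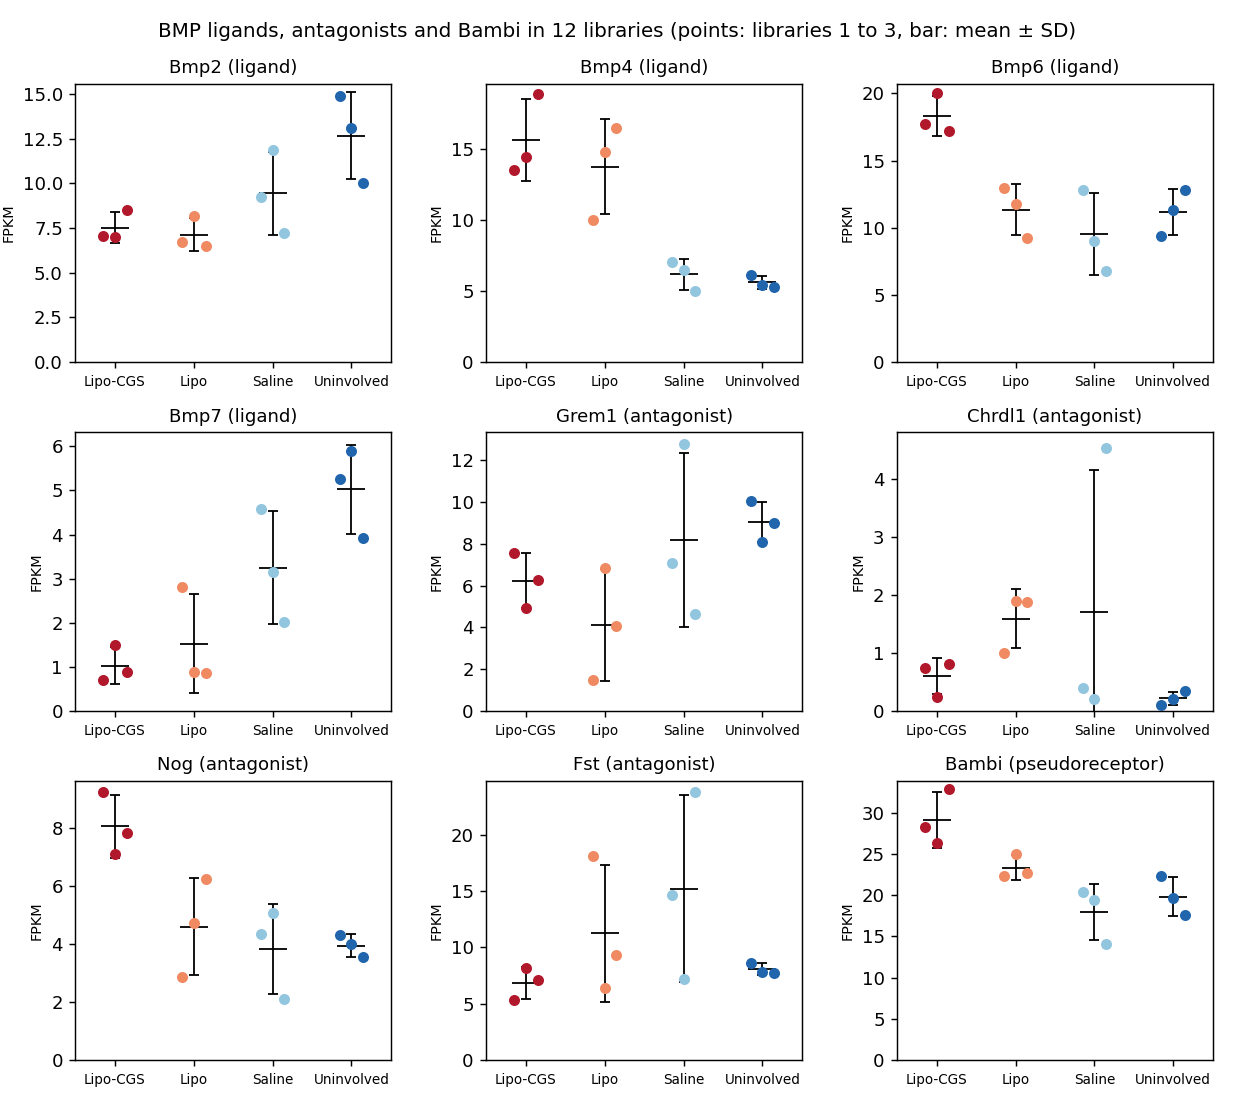
FPKM of the 9 members in each library (points) with the group mean and SD (bars), for Lipo-CGS, Lipo, Saline and Uninvolved knees, 3 libraries each. The 6 liposome libraries are above the other 6 for Bmp4, and the 3 Lipo-CGS libraries are above all others for Bmp6, Nog and Bambi. The lower SD bar of Chrdl1 in Saline is cut at 0.

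The 4 ligands made up different mixes in the liposome groups and in the other knees. The summed FPKM of Bmp2, Bmp4, Bmp6 and Bmp7 was 42.4 ± 3.30 in Lipo-CGS, 33.7 ± 1.65 in Lipo, 28.4 ± 6.61 in Saline and 34.5 ± 2.12 in Uninvolved libraries (mean ± SD, n = 3 each). Bmp4 made up 36.6 ± 4.31% of this sum in Lipo-CGS and 40.6 ± 9.55% in Lipo, against 22.0 ± 1.48% in Saline and 16.2 ± 0.981% in Uninvolved. The share of Bmp2 was 17.7 ± 1.25% in Lipo-CGS and 21.1 ± 1.71% in Lipo, against 33.5 ± 5.77% in Saline and 36.6 ± 5.23% in Uninvolved. Bmp7 made up 2.41 ± 0.939% in Lipo-CGS and 4.59 ± 3.53% in Lipo, against 11.2 ± 2.14% in Saline and 14.5 ± 2.14% in Uninvolved. Bmp6 made up 43.3 ± 4.78% in Lipo-CGS, 33.7 ± 5.95% in Lipo, 33.3 ± 4.32% in Saline and 32.7 ± 6.88% in Uninvolved. These shares were not tested, and they are bound to one another because they add to the whole. They leave out Bmp5, which is not a member. Its mean was 78.2 FPKM in Lipo-CGS, 51.7 in Lipo, 39.7 in Saline and 45.5 in Uninvolved libraries. In each group this was above the mean sum of the 4 ligands.

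**Figure D2:**
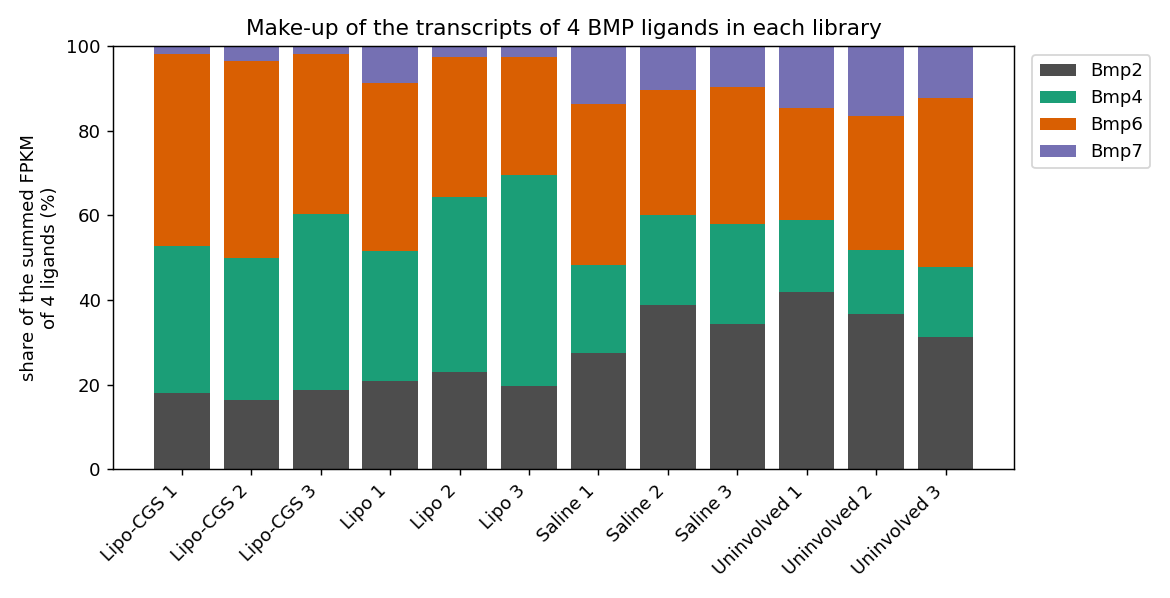
Share of the summed FPKM of Bmp2, Bmp4, Bmp6 and Bmp7 (percent, vertical axis) in each of the 12 libraries, stacked by ligand. Bmp4 takes 30.7 to 49.8% in the 6 liposome libraries, against 15.2 to 23.7% in the 6 Saline and Uninvolved libraries.

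Among the antagonists that are members, Nog was the one called higher in Lipo-CGS, against Saline and against Uninvolved. Chrd, which encodes the antagonist chordin and is not a member, was called higher in both liposome groups against each of these. Nog had 9.24, 7.10 and 7.81 FPKM in Lipo-CGS libraries, 2.86, 4.70 and 6.22 FPKM in Lipo libraries, 4.35, 5.06 and 2.08 FPKM in Saline libraries, and 4.30, 3.99 and 3.53 FPKM in Uninvolved libraries. All 3 Lipo-CGS libraries were above the rest, and the Lipo, Saline and Uninvolved libraries overlapped. The log2 difference of Lipo-CGS was 1.05 ± 0.28 against Saline (limma adjusted p = 0.0137) and 0.94 ± 0.28 against Uninvolved (limma adjusted p = 0.0170). Without Lipo-CGS 1 these lost their calls, at adjusted p of 0.0514 and 0.0617. Against Lipo it was 0.80 ± 0.28, with a 95% interval of 0.18 to 1.42 (limma adjusted p = 0.176, range over settings 0.0867 to 0.544).

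Bambi had the highest FPKM of the members in all 4 group means, and like Nog and Bmp6 it was highest in Lipo-CGS, with a smaller difference. Its levels were 28.3, 26.3 and 32.9 FPKM in Lipo-CGS knees, 22.3, 25.1 and 22.7 FPKM in Lipo, 20.4, 19.4 and 14.1 FPKM in Saline, and 22.3, 19.6 and 17.6 FPKM in Uninvolved libraries. Lipo-CGS was above every other library. The log2 difference was 0.70 ± 0.14 against Saline (limma adjusted p = 0.00347), and it was 0.53 without Saline 3, under the fold threshold. Against Uninvolved it was 0.55 ± 0.14 (limma adjusted p = 0.00827), a fold of 1.46 that missed the threshold of 1.5, and it passed without Uninvolved 1 (0.63) or Lipo-CGS 2 (0.62). Against Lipo it was 0.31 ± 0.14, with a 95% interval of 0.00 to 0.62 (limma adjusted p = 0.272, range over settings 0.149 to 0.594).

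Grem1, an antagonist expressed in articular cartilage, fell in Lipo knees relative to uninvolved ones, with a wide spread. It had 7.55, 4.92 and 6.26 FPKM in Lipo-CGS knees, 1.47, 6.83 and 4.06 FPKM in Lipo, 7.07, 12.8 and 4.66 FPKM in Saline, and 10.04, 8.11 and 9.01 FPKM in Uninvolved libraries. The Uninvolved libraries lay closest together, and all 3 were above every library of the 2 liposome groups. Grem1 fell in Lipo by 1.24 ± 0.42 on the log2 scale against Uninvolved (limma adjusted p = 0.0258), and without Lipo 1 this was 0.72 with an adjusted p of 0.0933, under which it was not called. It was also lost without Uninvolved 1, without Uninvolved 3 and with no filter on low values (adjusted p = 0.0749, 0.0512 and 0.0568). The difference of Lipo-CGS from Uninvolved was -0.52 ± 0.42 (limma adjusted p = 0.324).

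Chrdl1 was the lowest member, at 0.74, 0.24 and 0.81 FPKM in Lipo-CGS knees, 1.00, 1.89 and 1.88 FPKM in Lipo, 0.39, 0.21 and 4.53 FPKM in Saline, and 0.11, 0.21 and 0.34 FPKM in Uninvolved libraries. It reached 1 FPKM in 4 libraries, the 3 of Lipo and Saline 3, so it was tested only because it was high in Lipo. Its log2 difference of 1.52 ± 0.58 in Lipo against Uninvolved is therefore a description: it passed the thresholds (limma adjusted p = 0.0427) in the fit and in 10 of 19 other settings, with adjusted p between 9.5e-04 and 0.112, and is not read as support. Against Saline the difference in Lipo was 0.47 ± 0.58, and without Saline 3 it was 1.36 (limma adjusted p = 0.00630), under the same limit. Fst had a wide spread within Lipo and Saline, with within-group coefficients of variation of 54.3% and 54.6%. It had 5.34, 8.14 and 7.12 FPKM in Lipo-CGS knees, 18.1, 6.36 and 9.29 FPKM in Lipo, 14.6, 7.23 and 23.8 FPKM in Saline, and 8.65, 7.78 and 7.76 FPKM in Uninvolved libraries, and was called in no comparison. Its largest difference in size was in Lipo-CGS against Saline, at -0.96 ± 0.39 (limma adjusted p = 0.0706), and without Saline 2 or Lipo 1 it was called, at adjusted p of 0.0129 and 0.0400. The sum of Grem1, Chrdl1, Nog and Fst was 21.8 ± 1.25 FPKM in Lipo-CGS knees, 21.6 ± 1.82 FPKM in Lipo, 28.9 ± 5.38 FPKM in Saline and 21.3 ± 1.6 FPKM in Uninvolved libraries (mean ± SD, n = 3 each).

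Across the comparisons the members read as follows against the share of all tested genes that was called. In Lipo-CGS against Uninvolved, 5 of 9 members were called, against 25.7% of all genes, with Bmp4, Bmp6 and Nog higher (11.7% of all genes were) and Bmp2 and Bmp7 lower (14% of all genes). In Lipo against Uninvolved 5 of 9 were called, against 30.5% of all genes, with Bmp4 and Chrdl1 higher (14.1% of all genes) and Bmp2, Bmp7 and Grem1 lower (16.3% of all genes). Without Chrdl1, which was tested only through its level in Lipo, that is 4 of 8. Bmp7 is among the called members in these counts and in those against Saline. It was tested only through the Saline and Uninvolved groups, where it was high, so its calls are a description. Both comparisons with Uninvolved use the same libraries of that group. Of 8 tested fibroblast markers, 3 rose in Lipo-CGS against Uninvolved and none fell, while 5 rose and 1 fell in Lipo. All 3 tested leukocyte markers fell in both. Of these, Cd79a was under 1 FPKM in every liposome library. It passed the filter only through the Saline and Uninvolved groups, where it was high, so its fall is a description. Of 10 chondrocyte markers, 4 rose in each liposome group against Uninvolved and 1 fell in Lipo. Only Ibsp of 6 listed osteoblast or osteocyte markers was tested. It fell by 2.15 in Lipo-CGS and by 1.02 in Lipo on the log2 scale. Of 3 tested mural or smooth muscle markers, Acta2, which also marks activated fibroblasts, rose by 2.08 and 2.94. Des fell by 1.25 and 1.18, and Cspg4 was not called. Like Cd79a, Des passed the filter only through the Saline and Uninvolved groups, where it was high. Its falls here and against Saline are therefore a description. Against Saline, 7 of 10 chondrocyte markers rose in Lipo-CGS, and 4 rose and 1 fell in Lipo, while 1 fibroblast marker rose in Lipo-CGS, and 4 rose and 1 fell in Lipo. Of 3 tested leukocyte markers 2 fell in Lipo-CGS and 3 in Lipo against Saline, Cd79a among them in both. Acta2 rose by 0.98 and 1.84, Des fell by 1.21 and 1.14, Cspg4 was not called, and Ibsp fell by 1.27 in Lipo-CGS. The part of these markers in the members' differences was not tested. In Lipo-CGS against Saline 5 of 9 were called, against 18.6%, with Bmp4, Bmp6, Nog and Bambi higher (8.23%) and Bmp7 lower (10.3%). In Lipo against Saline 2 of 9 were called, against 22.9%, with Bmp4 higher (10.6%) and Bmp7 lower (12.3%). Groups did not overlap for 7 members in Lipo-CGS against Uninvolved (59.4% of all genes), 6 in Lipo against Uninvolved (58.7%), 5 in Lipo-CGS against Saline (58%) and 2 in Lipo against Saline (55.4%). The median log2 difference of the 9 members was 0.55 in Lipo-CGS and 0.14 in Lipo against Uninvolved, and -0.27 in Lipo-CGS and 0.25 in Lipo against Saline, while that of all tested genes was between -0.012 and 0.0072.

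Setting Lipo-CGS beside Lipo asks what the agonist adds to the liposome, and no member was called there, beside 0.167% of all genes (19 genes, 0.0791% higher and 0.0879% lower). That count over all genes was 3 to 115 with 1 library left out (3 without Lipo 1, Lipo-CGS 1 or Lipo-CGS 3, 46 without Lipo 2, 108 without Saline 3 and 115 without Uninvolved 3), and none of these held a member. By limma, 3 members had an unadjusted p under 0.05 in this comparison (Bmp6, Nog and Bambi, all higher in Lipo-CGS), as did 2087 of the 11373 genes. The 2 groups did not overlap for 4 members, these 3 and Chrdl1, against 27.9% of all genes. The median log2 difference was 0.19 over the members and 0.0036 over all tested genes. Saline against Uninvolved asks what the injury together with saline injections did without liposomes, and injury and injection cannot be told apart there. No member was called in it, beside 0% of all genes. By limma, 1 member (Bmp2) and 566 genes had an unadjusted p under 0.05 there, and the log2 difference of Bmp2 was -0.42 with a 95% interval of -0.81 to -0.02. No member had groups that did not overlap in Saline against Uninvolved, against 8.48% of all genes, and the smallest adjusted p of a member was 0.809. Without Uninvolved 3 the count over all genes was 46, in place of 0, and no member was among them.

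**Figure D3:**
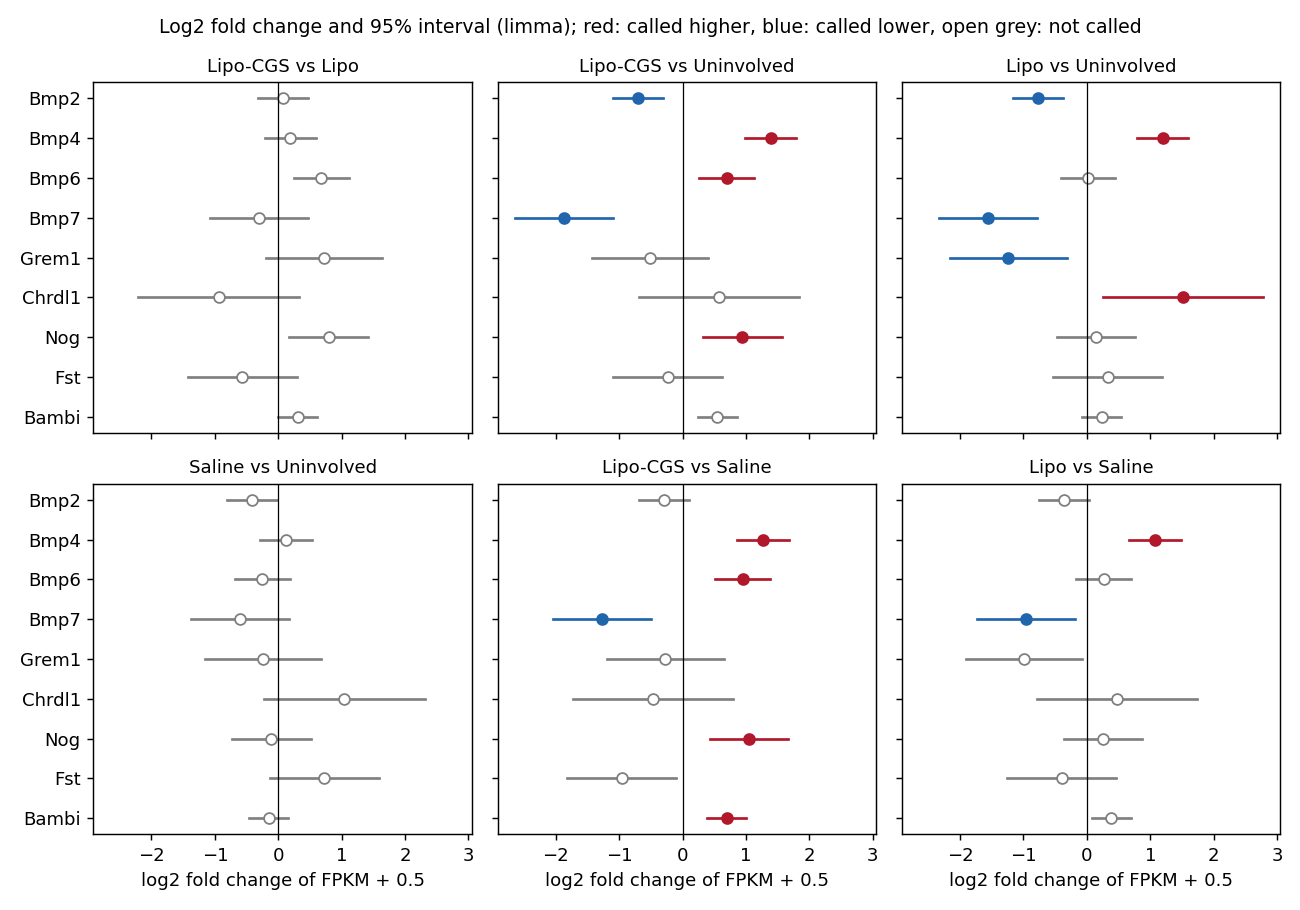
Log2 difference of each member (horizontal axis, log2 of FPKM + 0.5) with its 95% interval from limma, in 6 comparisons. Filled points were called, which was the case for Bmp4 in the 4 comparisons of a liposome group with Saline or Uninvolved, and for no member in Lipo-CGS against Lipo or Saline against Uninvolved.

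The other genes of the pathway were taken from lists of 63, of which 41 were tested. In Lipo-CGS against Uninvolved 9 rose and 6 fell, where 11.7% and 14% of all genes did, and in Lipo against Uninvolved 12 rose and 6 fell, where 14.1% and 16.3% did. Against Saline, 8 rose and 4 fell in Lipo-CGS (8.23% and 10.3% of all genes), and 9 rose and 6 fell in Lipo (10.6% and 12.3%). None was called in Lipo-CGS against Lipo or in Saline against Uninvolved. Inhbb was among the risers in both liposome groups against Uninvolved and against Saline, and Gdf11 in Lipo against Uninvolved. Both passed the filter only through the liposome groups, where they were high, so these calls are a description. Bmp5, a ligand close to Bmp6 and Bmp7 in sequence, was the most abundant ligand of the list, at 78.2 ± 8.53 FPKM in Lipo-CGS knees, 51.7 ± 10.7 FPKM in Lipo, 39.7 ± 12.4 FPKM in Saline and 45.5 ± 2.33 FPKM in Uninvolved libraries. It rose in Lipo-CGS by 0.77 ± 0.22 on the log2 scale against Uninvolved (limma adjusted p = 0.0126) and by 1.02 ± 0.22 against Saline (limma adjusted p = 0.00445). Against Lipo the difference was 0.61 ± 0.22 (limma adjusted p = 0.177).

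Of 7 other ligands tested, Inhbb, which encodes an activin subunit, rose and Gdf6, a ligand of joint formation, fell in both liposome groups. Inhbb was at 3.05 ± 0.175 FPKM in Lipo-CGS libraries, 2.90 ± 1.16 FPKM in Lipo libraries and 0.553 ± 0.081 FPKM in Uninvolved, and its log2 differences were 1.75 and 1.63 (limma adjusted p = 4.1e-04 and 3.9e-04). It was under 1 FPKM in every Saline and Uninvolved library, so it passed the filter only through the liposome groups, where it was high. Gdf6 was at 2.70 ± 1.17 FPKM in Lipo-CGS libraries, 4.02 ± 1.38 FPKM in Lipo libraries and 6.94 ± 1.59 FPKM in Uninvolved, a fall by 1.25 and by 0.74 on the log2 scale (limma adjusted p = 0.00255 and 0.0298). Inhba, another activin subunit, rose in Lipo by 0.82 (limma adjusted p = 0.0158). Of 10 other extracellular modulators tested, 3 rose in Lipo-CGS and 4 in Lipo against Uninvolved (11.7% and 14.1% of all genes), and none fell. Crim1, a membrane protein that binds BMPs, rose by 1.06 in Lipo-CGS and 0.96 in Lipo. Chrd, which encodes the antagonist chordin, rose by 0.90 and 0.99, and Tll1, a protease that cleaves chordin, rose by 0.79 and 0.60. Fstl1, follistatin-like 1, rose in Lipo by 0.89.

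Of 8 receptors and co-receptors tested, 3 rose in each liposome group against Uninvolved (11.7% of all genes in Lipo-CGS and 14.1% in Lipo), none fell and 5 were not called. Eng, the co-receptor endoglin, was the most abundant, at 54.5 ± 7.37 FPKM in Lipo-CGS libraries, 54.5 ± 11.4 FPKM in Lipo libraries and 33.9 ± 1.00 FPKM in Uninvolved (log2 differences 0.67 and 0.66, limma adjusted p = 0.00341 and 0.00298). Bmpr1a, a type I receptor, rose by 0.83 and 0.87, and Bmpr2, the type II receptor, by 0.74 and 0.97. Of 8 tested SMADs and regulators, Nedd9, which binds SMADs, rose by 1.39 in Lipo-CGS and 1.46 in Lipo, and Smad4, the common SMAD, rose by 0.71 in Lipo.

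Of 8 targets tested, 5 fell in each liposome group against Uninvolved (14% of all genes in Lipo-CGS and 16.3% in Lipo), none rose, and Id2, Atoh8 and Runx2 were not called, with a median log2 difference over the 8 of -0.62 in Lipo-CGS and -0.87 in Lipo. Id1, an inhibitor of basic helix-loop-helix factors and the target with the highest FPKM in Uninvolved knees, was at 186 ± 24.4 FPKM in Lipo-CGS knees, 176 ± 29.5 FPKM in Lipo, 389 ± 54.4 FPKM in Saline and 525 ± 139 FPKM in Uninvolved libraries. It fell by 1.47 ± 0.20 on the log2 scale in Lipo-CGS (limma adjusted p = 3.4e-04) and by 1.55 ± 0.20 in Lipo (limma adjusted p = 1.8e-04) against Uninvolved. Id3, its close relative, was at 307 ± 43.2 FPKM in Lipo-CGS libraries, 242 ± 32.8 FPKM in Lipo libraries and 491 ± 114 FPKM in Uninvolved, and fell by 0.66 and by 1.00. Id4 fell by 0.59 in Lipo-CGS and 1.10 in Lipo, the homeobox gene Msx1 by 0.70 and 0.87, and Dlx5, a homeobox gene of cartilage and bone, by 0.72 and 0.87. Against Saline the set differed: 3 of 8 fell in Lipo-CGS (Id1, Id2 and Msx1), where 10.3% of all genes did. In Lipo 5 fell against Saline (Id1, Id2, Id3, Id4 and Msx1), where 12.3% of all genes did. No target rose against Saline in either group.

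**Figure D4:**
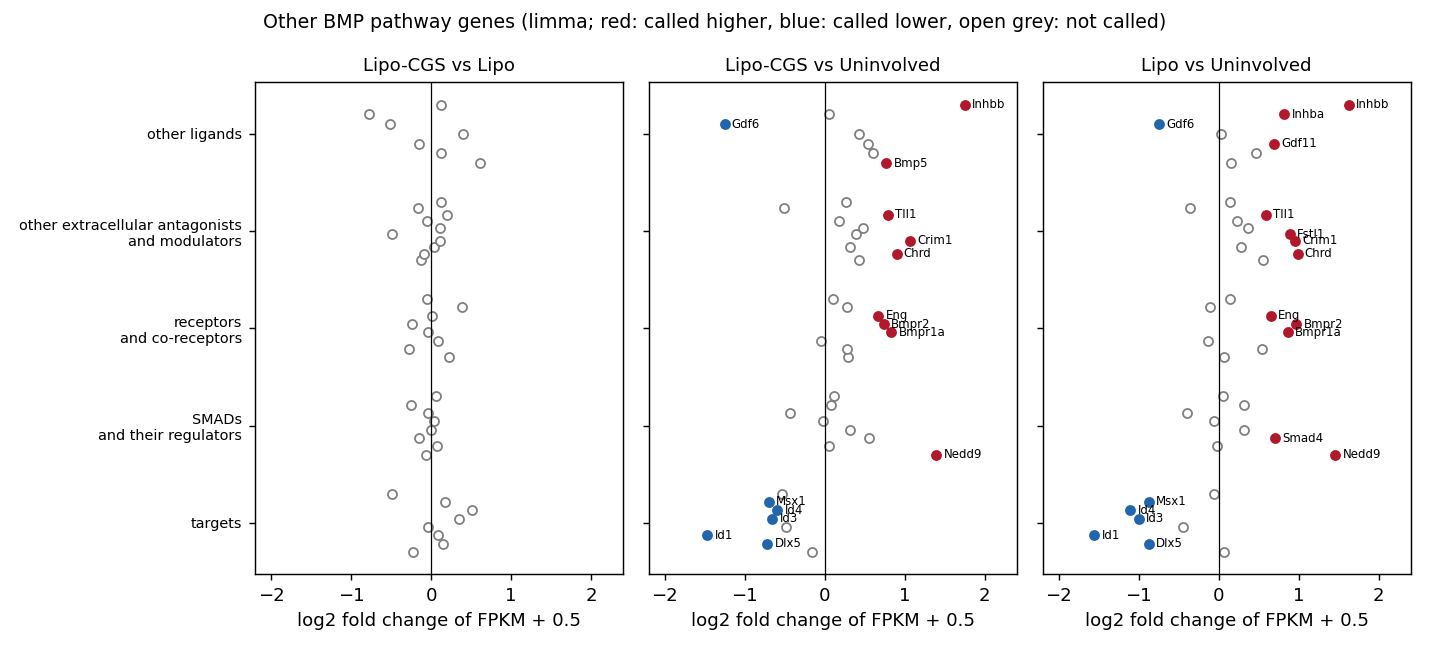
Log2 difference (log2 of FPKM + 0.5) of the other tested genes of the pathway, without the members, grouped by role, with called genes filled. The panels show Lipo-CGS against Lipo, Lipo-CGS against Uninvolved and Lipo against Uninvolved. The 5 called targets lie below 0 and the 3 called receptors above it in both comparisons with Uninvolved.

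Among all tested genes, the 3 whose centered log2 profile over the 12 libraries was closest to each called member were listed by root mean square difference. For Nog these were Arg2 at 0.203, Bmp5 at 0.203 and Mertk at 0.206, against a root mean square of 0.528 for Nog itself. For Bmp4 the nearest was LOC303140 at 0.152 and the third Abca5 at 0.166, with Klhl24 between them, against 0.655 for Bmp4. Bmp6 was nearest to B4galnt3 at 0.207, with Tmod2 and Gldc next, against 0.418 for Bmp6 itself, and Bmp7 to Lypd8 at 0.285, with Mnd1 and Cenph next, against 0.854. Bmp2 was nearest to Gmfg at 0.123, with Ssb and Tceal9 next, and Bambi to Fsd1 at 0.107, with Ap5s1 and Ech1 next. For Grem1 the nearest was F13a1 at 0.263, followed by RGD1310110 and Scrg1, and for Chrdl1 it was Selenop at 0.247, followed by Klhl30 at 0.363 and Gpc1.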

How the data were processed

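RNA of cultured knee chondrocytes was measured in 12 libraries, 3 per group, grouped by their GEO titles. By the study's methods, single reads were aligned with STAR to Rnor_6.0, counted with featureCounts and compared with DESeq2, and the submitters' processing notes also name HTSeq. The authors deposited FPKM values with 2 decimals, and the step from counts to FPKM is not given in the sources used here. Raw counts were not used, so depth is unknown. From the steps of low values in 391 genes, relative depth was 0.836 to 1.12. Total FPKM was 406630 to 544170 per library. Median-of-ratios factors of the values were within 1.0058 to 1.0067, so the values already shared that scaling, none was added, and the median-of-ratios alternative could move little.

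A gene was tested when 3 or more libraries reached 1 FPKM. Group means were fitted to all 12 libraries as log2(FPKM + 0.5) with limma 3.58.1 in R 4.3.3 (eBayes with a trend, statmod 1.5.0), with Benjamini-Hochberg adjustment over 11373 genes. The thresholds follow the study's methods. The fit was tested on simulated data.

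Named were the 9 members; of the other pathway genes, the 3 with the largest called changes per list against Uninvolved and the most abundant ligand, receptor and target; and the 3 genes nearest to each called member. The members and lists were chosen with earlier results of these data known. The alternatives were pseudocounts of 0.1 and 1, no filter or one of 5 FPKM, median-of-ratios scaling, a replicate block, robust eBayes, a fit to the compared groups only and leaving out each library. Promoters are 250 bases before RefSeq starts (GRCr8).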

Additional observations from a re-analysis of the deposited data

How the results depend on the processing

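Over the 20 alternative settings (19 for Bmp7 and Chrdl1, which a filter of 5 FPKM removed), members' differences kept direction and side of the thresholds in 1017 of the values, with 29 calls lost, 7 gained and 15 changes of sign. In Lipo-CGS against Lipo, 19 genes were called over all genes, 42 in the fit to these groups only and 3 to 115 with 1 library left out, and no member in any of them. In Saline against Uninvolved the leave-one-out counts were 0 to 46. Members called in Lipo against Uninvolved were 5, then 3 with no filter, 3 with the filter of 5 FPKM and 3 to 5 with 1 library left out. In Lipo against Saline they were 2, then 1 with no filter, 1 with the filter of 5 FPKM, 1 in the fit to these groups only and 1 to 4 with 1 library left out (4 without Saline 3). In Lipo-CGS against Saline leave-one-out gave 3 to 6 (3 without Lipo-CGS 1). The cause was not tested.

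Changes of sign, all with 1 library left out and none called, had these ranges on the log2 scale. In Lipo-CGS against Lipo they were -0.013 to 0.33 for Bmp4, -0.53 to 0.12 for Bmp7 and -0.013 to 0.17 for Bmp2. In Lipo against Uninvolved they were -0.10 to 0.15 for Bmp6, -0.062 to 0.66 for Fst and -0.083 to 0.42 for Nog. In Saline against Uninvolved they were -0.61 to 0.074 for Grem1, -0.32 to 0.23 for Nog and -0.25 to 0.012 for Bambi. In Lipo-CGS against Saline they were -0.59 to 0.091 for Grem1 and -0.99 to 0.42 for Chrdl1, and in Lipo against Saline -0.050 to 1.36 for Chrdl1 and -0.085 to 0.52 for Nog.

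Replicate numbers did not pair the libraries: 2 of 18 same-numbered pairs had a correlation of deviations over 0.1 (range -0.22 to 0.20), and 4 of 36 best matches were to the own number. With the replicate block 9 genes were called in Lipo-CGS against Lipo, and the block changed no count of members (0, 5, 5, 0, 5 and 2 called in the 6 comparisons). Low levels limit what can be read from Chrdl1 and Bmp7, which reached 1 FPKM in 4 and 8 of the 12 libraries.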
